A study of Mus musculus with 12 samples.

Results

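Cytochrome P450 enzymes are haem proteins that insert an oxygen atom into steroids, sterols, retinoids, fatty acids and foreign compounds. Their genes carry symbols that begin with Cyp, followed by a family number, a subfamily letter and a gene number. Described here were all genes with such a symbol and a probe set that carried it alone, except for 6 set aside by rule. These were Cyp11a1, Cyp11b1 and Cyp21a1 (steroidogenic enzymes of the adrenal cortex), Cyp2e1, Cyp2f2 and Cyp51. Each gene was represented by a probe set that carried its symbol alone. In this way 50 P450 genes were found among the 17380 genes with such a probe set, and 44 of them were among the 17186 genes that reached a log2 signal of 6 on at least 3 arrays and were tested. The choice went by symbol, and the signal filter alone decided which of the 50 were tested. The genes set aside include the P450 genes with the largest fold changes in ASP relative to CON (Cyp11b1, Cyp21a1, Cyp11a1 and Cyp2e1), so the counts below do not stand for P450 genes as a whole.

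The tissue was hypothalamus of adult male C57Bl/6J mice killed at 21 weeks of age. ASP mice received the sweetener aspartame at 46 mg/kg body weight, beginning in utero through the mother. CGP mice were exposed to CGP 39551, which competes with glutamate at NMDA receptors, through treatment of the mother. This was during development only, up to postnatal day 28. The mothers received it in the drinking water at 5 mg/kg, a dose set by their own body weight. ASP+CGP mice received both, and CON mice received neither. For each group the RNA of its mice was combined into 1 pool, and each of the 4 pools was run on 3 Affymetrix Mouse Gene ST arrays. The 3 arrays of a pool are therefore technical repeats, and the errors and p-values given here hold no spread between mice or litters. A dissected block of tissue mixes many cell types, so that a lower share of a cell type and less RNA in each cell cannot be told apart.

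Values are log2 RMA signals, which compare arrays for a given gene and do not rank genes against each other. Signals near 6 include much background, and fold changes of such genes are understated. The spread of the arrays around their pool mean was larger for the third ASP+CGP array (SD 0.0996 over all genes tested) and the third CON array (0.0903) than for the other 10 (0.049 to 0.0701). Of the hypothalamus markers, 15 of 16 were measured and none had a pool mean under 6. Relative to CON, 6 of them were lower and 2 higher in ASP, 5 were lower in CGP and 6 were lower in ASP+CGP. Among the lower ones was the vasopressin gene Avp (-0.50 in ASP, -0.35 in CGP and -0.55 in ASP+CGP). Of all genes tested, 4.08% passed a limma adjusted p under 0.05 in ASP, 0.628% in CGP and 1.75% in ASP+CGP. Of the 11 measured adrenal cortex markers, 10 were higher in ASP than in CON, and their summed linear signal was 20700 to 21100 in ASP, 1820 to 1830 in CGP, 1740 to 1770 in ASP+CGP and 1770 to 1840 in CON. All 11 measured adipose markers (8910 to 9240 in ASP against 2380 to 2450 in CON) and all 10 exocrine pancreas markers (5030 to 5190 against 1270 to 1370) were also higher in ASP. Hsd3b1 and Mc2r of the adrenal list, Adipoq, Fabp4, Lep and Cd36 of the adipose list, and Cpb1 and Zg16 of the pancreas list had means under 6 in the other 3 pools. Without their ASP arrays these genes would not have passed the signal filter, which favoured their count as higher in ASP. The lists were chosen with earlier results of these data known. Pituitary markers summed to 36900 to 37100 in ASP, 32800 to 33400 in CGP, 4300 to 4920 in ASP+CGP and 18000 to 19000 in CON. The pools thus differed in markers of hypothalamus and of other tissues, and what part this had in the P450 differences was not tested.

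The P450 families divide by substrate. Families 1 to 3 act mainly on foreign compounds, and some of their members make epoxides of arachidonic acid in the brain and its vessels. Family 4 hydroxylates the far end of fatty acids and eicosanoids. Families 7, 8, 27, 39 and 46 shape cholesterol, oxysterols, bile acids and vitamin D, family 26 destroys retinoic acid, and families 11 and 17 make steroid hormones. Many of these genes are switched on by ligand-activated receptors. Cyp1b1 is a classical target of the aryl hydrocarbon receptor, and Cyp2b10 is the classical mouse target of the nuclear receptor CAR (Nr1i3).

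Among the 44 tested P450 genes, those with the largest differences between ASP and ASP+CGP after Cyp11b2 were Cyp1b1, Cyp2b10 and Cyp27a1. The 250 bases before the transcript start in the promoter table are shown for that reason, from RefSeq on build GRCm38.p6 and written in the direction of transcription. Cyp1b1 is read from the minus strand at chr17:79715062-79715311, Cyp2b10 from the plus strand at chr7:25897408-25897657 and Cyp27a1 from the plus strand at chr1:74713285-74713534. The first and second windows end at the start of the annotated gene, while the Cyp27a1 gene is annotated from 74713148, so its window lies inside the gene, before a later transcript start. Capitals mark GCGTG, the core of the xenobiotic response element bound by the aryl hydrocarbon receptor, or CACGC, the same letters on the opposite strand.
Cyp1b1: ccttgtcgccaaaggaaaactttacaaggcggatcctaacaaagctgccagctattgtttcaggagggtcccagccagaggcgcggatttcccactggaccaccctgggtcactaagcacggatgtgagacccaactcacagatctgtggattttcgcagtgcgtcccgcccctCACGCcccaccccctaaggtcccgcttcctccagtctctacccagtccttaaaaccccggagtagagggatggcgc
Cyp2b10: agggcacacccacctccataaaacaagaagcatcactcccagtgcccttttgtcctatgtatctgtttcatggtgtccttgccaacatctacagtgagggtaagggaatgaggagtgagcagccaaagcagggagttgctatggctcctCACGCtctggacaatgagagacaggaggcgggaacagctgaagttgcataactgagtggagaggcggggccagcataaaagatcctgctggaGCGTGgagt
Cyp27a1: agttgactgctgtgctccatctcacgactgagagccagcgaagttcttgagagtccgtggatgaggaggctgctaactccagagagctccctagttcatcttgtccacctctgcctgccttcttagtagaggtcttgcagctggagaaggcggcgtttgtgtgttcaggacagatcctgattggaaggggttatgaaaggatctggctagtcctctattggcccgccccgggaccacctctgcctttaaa
The Cyp1b1 window held the motif once, with its first base 76 bases before the start, and the Cyp2b10 window held it at 101 and 9 bases before the start. The Cyp27a1 window did not hold these letters. Of the 44 tested P450 genes, 33 matched an entry, in 37 windows, and 12 of these windows (32.4%) held GCGTG on either strand, against 28.2% of all 32851 windows of this length. The nuclear receptor half-site AGGTCA was present in 5.41% of the P450 windows and 14% of all, and the TATA box TATAAA in 18.9% and 12.4%, and neither was found in the 3 windows printed here. All were searched on both strands, and none of the 3 motifs contains another. A match describes the sequence and was not tested for binding.

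The 44 tested P450 genes comprised 2 of family 1, 18 of the 23 listed of family 2, 1 of family 3, 11 of the 12 listed of family 4, 3 of family 26, 2 of family 27 and 1 each of families 7, 8, 11, 17, 20, 39 and 46. Cyp2d37-ps and Cyp4f41-ps are annotated as pseudogenes. The 6 that were not tested, Cyp2a12, Cyp2b9, Cyp2c23, Cyp2c54, Cyp2d9 and Cyp4f18, lay between 5.23 and 6.14 on all arrays and reached 6 on 1 array each. RefSeq lists 93 protein-coding P450 genes outside the 6 set aside. Of these, 48 are among the genes described and 45 are not, among them Cyp7a1, Cyp19a1, Cyp24a1, Cyp1a2, Cyp2r1, Cyp3a11, Cyp4a10, Cyp2c29 and Cyp4v3. Cyp4v3 shares a probe set with Klkb1. That probe set differed by 0.06 in ASP relative to CON (limma adjusted p = 0.54) and passed in no comparison. No tested P450 gene had more than 1 probe set.

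The first comparison asked which P450 genes differed with lifelong aspartame exposure. In ASP relative to CON, 4 P450 genes were upregulated (Cyp11b2, Cyp2b10, Cyp4a14 and Cyp1b1) and 1 was downregulated (Cyp2j9) at a limma adjusted p under 0.05. These 5 were 11.4% of the tested P450 genes, and 4.08% of all genes tested passed this threshold (2.92% higher and 1.16% lower). When a fold change over 1.4 was also required, Cyp11b2 alone remained, upregulated, which is 2.27% of the P450 genes beside 1.05% of all genes (1.02% counting higher ones only). The remaining differences were small. The median log2 fold change was 0.03 over the 44 P450 genes and -0.01 over all genes, 38 of the 44 lay within 0.2 of zero, and 28 lay above zero. The standard errors had a median of 0.07.

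**Figure D1:**
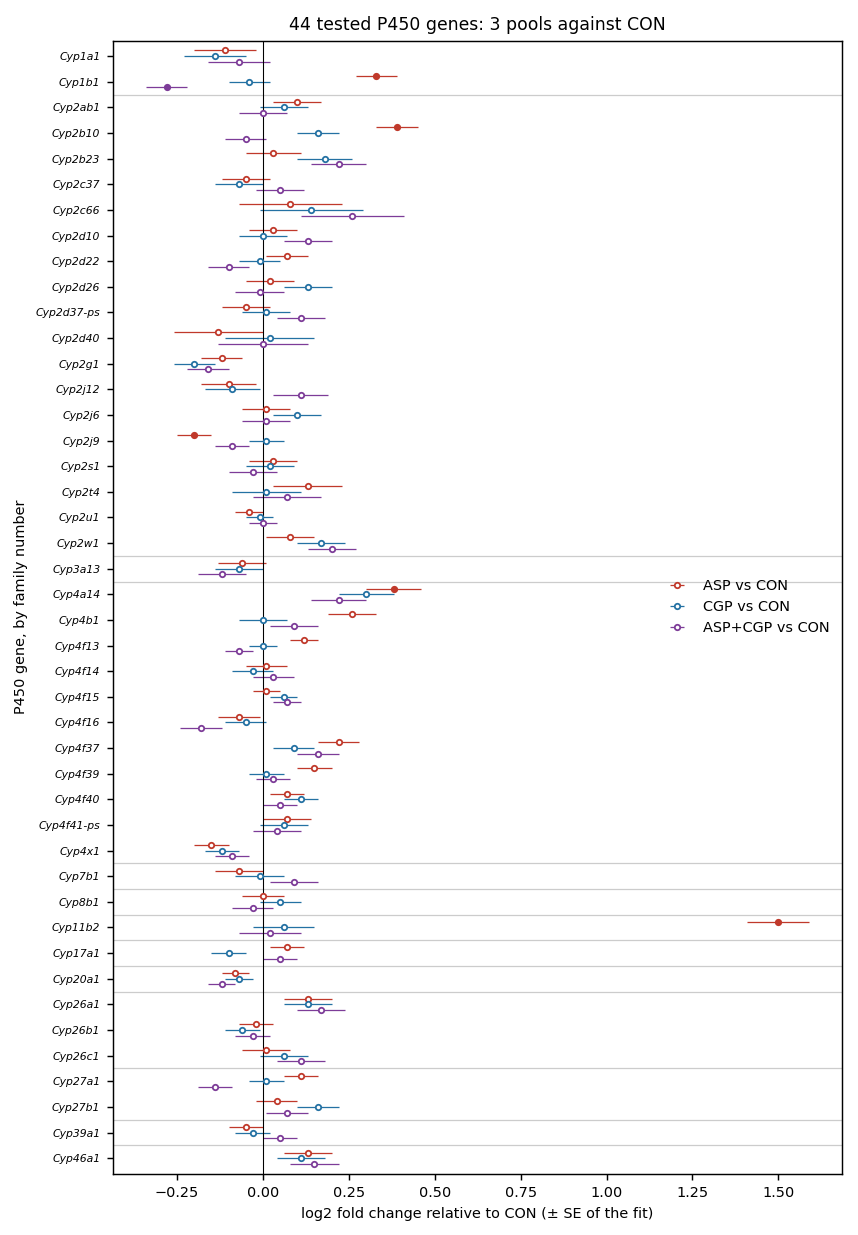
Log2 fold changes of the 44 tested P450 genes in ASP, CGP and ASP+CGP relative to CON (horizontal axis, with bars of 1 standard error of the fit), ordered by family number down the page. Filled points passed a limma adjusted p under 0.05: 5 genes in ASP, none in CGP and 1 (Cyp1b1) in ASP+CGP, and Cyp11b2 at 1.50 in ASP stands outside the range of all others.

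The largest difference was in a gene of steroid synthesis. Cyp11b2, aldosterone synthase, the last enzyme of aldosterone formation in the outer adrenal cortex, read 8.11, 8.07 and 8.27 in ASP, 6.64, 6.69 and 6.79 in CGP, 6.47, 6.78 and 6.77 in ASP+CGP and 6.52, 6.77 and 6.67 in CON. All ASP arrays lay above all 9 others, which overlapped among themselves. Cyp11b2 was 2.83-fold upregulated in ASP relative to CON (log2 fold change 1.50 ± 0.09 SE, limma adjusted p = 4.6e-08). It is kept by the rule although it is itself an adrenal steroidogenic gene, so the genes described do not lie wholly outside adrenal steroidogenesis. Its neighbour and close paralog on chromosome 15, Cyp11b1, was 66-fold higher in ASP than in CON, and Cyp21a1 and Cyp11a1 were 58.1-fold and 29.8-fold higher. The summed adrenal cortex markers given above moved with it, and whether transcripts of Cyp11b1 also bound the Cyp11b2 probes was not tested.

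Cyp17a1 makes androgen precursors, in mice chiefly in the gonads. It read 6.46, 6.53 and 6.54 in ASP and 6.43, 6.43 and 6.47 in CON, a difference of 0.07 ± 0.05 that did not pass (limma adjusted p = 0.52).

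Of the family 1 pair, Cyp1b1, which oxidizes estrogens, retinoids and polycyclic hydrocarbons, read 8.02, 7.93 and 7.77 in ASP and 7.60, 7.62 and 7.52 in CON. The ASP arrays lay above the CON arrays without overlap, and the increase was 1.26-fold (0.33 ± 0.06, limma adjusted p = 0.0047). Cyp1a1, the other family 1 gene tested and the most inducible target of the aryl hydrocarbon receptor in most tissues, read 6.18, 6.29 and 6.09 in ASP against 6.16, 6.28 and 6.47 in CON and did not pass (-0.11 ± 0.09, adjusted p = 0.56).

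In family 2, Cyp2b10, a drug-metabolizing enzyme of liver that also oxidizes steroids, read 6.77, 6.96 and 7.04 in ASP and 6.59, 6.50 and 6.51 in CON. Its arrays did not overlap either, and it was 1.31-fold upregulated (0.39 ± 0.06, adjusted p = 0.0014). Its relative Cyp2b23 read 7.12, 6.84 and 6.86 in ASP and 6.88, 6.85 and 7 in CON, with a difference of 0.03 ± 0.08 that did not pass. Whether related family 2 transcripts bound each other's probes was not tested. Of 13 measured liver markers, 2 (Alb and Ttr) were higher in ASP than in CON, and the other 11 did not pass. Of all genes tested, 2.92% were higher there by adjusted p. The summed linear signal was 7730 to 7930 in ASP, 6490 to 6620 in CGP, 6520 to 7490 in ASP+CGP and 5040 to 5860 in CON. Most of this sum came from Ttr, whose pool mean was 12.5 in ASP and 11.76 in CON. Ttr, which is also made by choroid plexus, was higher than in CON in CGP and ASP+CGP as well, and Alb was not. The part of such RNA in the Cyp2b10 difference was not tested.

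Cyp2j9, an arachidonic acid hydroxylase described from mouse brain, was the single P450 gene downregulated in ASP relative to CON. Its signals were 10.02, 10.11 and 10.07 in ASP and 10.26, 10.27 and 10.27 in CON, 1.15-fold lower (-0.20 ± 0.05, adjusted p = 0.041). The adjusted p ranged between 0.02 and 0.15 when single arrays were left out and lay above 0.05 in 9 of 12 such fits, and it was 0.065 without the third array of CON and that of ASP+CGP. Other family 2 genes with brain expression gave values close to zero. Cyp2d22, the mouse counterpart of the human drug-metabolizing CYP2D6, differed by 0.07 ± 0.06, the epoxygenase Cyp2j6 by 0.01 ± 0.07, the fatty acid hydroxylase Cyp2u1 by -0.04 ± 0.04 and the retinoid-metabolizing Cyp2s1 by 0.03 ± 0.07, none of which passed. Over the 18 tested family 2 genes the log2 fold changes ran between -0.20 and 0.39 with a median of 0.02. Cyp3a13, the only family 3 gene tested and a drug-metabolizing enzyme of gut and liver, differed by -0.06 ± 0.07 (adjusted p = 0.71).

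Of the 11 tested family 4 genes, 1 passed in ASP relative to CON. Their median log2 fold change was 0.07 and 9 of 11 lay above zero, beside 63.6% of the tested P450 genes and 43.6% of all genes, while relative to CON 7 of 11 lay above zero in CGP and 8 of 11 in ASP+CGP. Cyp4a14, a fatty acid omega-hydroxylase and a target of the receptor PPAR alpha, read 6.24, 6.07 and 6.10 in ASP and 5.54, 5.85 and 5.89 in CON, 1.3-fold higher without overlap (0.38 ± 0.08, adjusted p = 0.011). All 3 CON signals lay under 6, and with values under 6 set to 6 the difference was 0.14 with an adjusted p of 0.13. Without the first ASP array the adjusted p was 0.062. Cyp4b1, which hydroxylates fatty acids and activates protoxins in lung, read 7.81, 7.51 and 7.66 in ASP and 7.37, 7.32 and 7.52 in CON, so that the pools overlapped, and it just failed the test (0.26 ± 0.07, adjusted p = 0.058). Cyp4f37 was close to passing as well (0.22 ± 0.06, adjusted p = 0.064), with ASP arrays of 6.43, 6.27 and 6.47 against CON arrays of 6.12, 6.21 and 6.18. At the other end of the family, the brain-enriched Cyp4x1 read 8.50, 8.58 and 8.57 in ASP and 8.79, 8.67 and 8.65 in CON (-0.15 ± 0.05, adjusted p = 0.13). The leukotriene hydroxylase Cyp4f14 and its relative Cyp4f15 differed by 0.01 ± 0.06 and 0.01 ± 0.04 and did not pass.

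**Figure D2:**
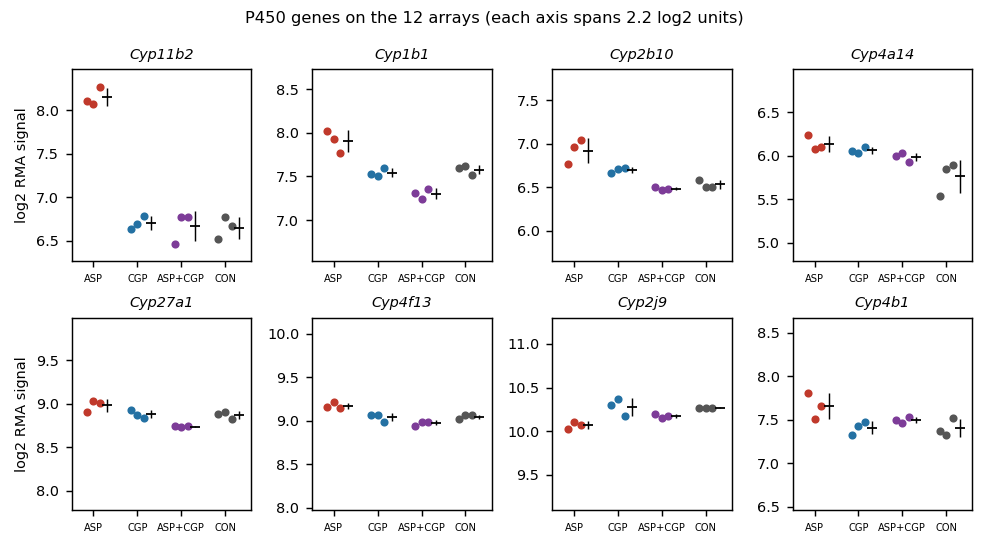
Log2 RMA signals of 8 P450 genes on the 12 arrays (vertical axis, each spanning 2.2 log2 units), 3 arrays for each of the ASP, CGP, ASP+CGP and CON pools, with the pool mean and SD to the right of each set of points. The 3 ASP arrays of Cyp11b2, Cyp1b1, Cyp2b10 and Cyp4f13 lie above every array of the other pools, and those of Cyp2j9 lie below them.

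P450 genes of sterol metabolism gave no call in ASP relative to CON. Cyp46a1, the neuronal cholesterol 24-hydroxylase that clears cholesterol from the brain, read 10.83, 10.92 and 10.85 in ASP and 10.74, 10.85 and 10.63 in CON (0.13 ± 0.07, adjusted p = 0.42). Cyp27a1, the mitochondrial sterol 27-hydroxylase, read 8.90, 9.03 and 9.01 in ASP and 8.88, 8.91 and 8.82 in CON (0.11 ± 0.05, adjusted p = 0.24). Both pairs of pools overlapped. Cyp7b1, which hydroxylates oxysterols and neurosteroids such as dehydroepiandrosterone, differed by -0.07 ± 0.07, the oxysterol 7-hydroxylase Cyp39a1 by -0.05 ± 0.05 and the bile acid enzyme Cyp8b1 by 0 after rounding (SE 0.06).

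The retinoic acid hydroxylases and vitamin D activation gave no call either. Cyp26a1 differed by 0.13 ± 0.07, Cyp26b1 by -0.02 ± 0.05 and Cyp26c1 by 0.01 ± 0.07 in ASP relative to CON, and these enzymes set how much retinoic acid a tissue holds. Cyp27b1, which makes the active form of vitamin D, differed by 0.04 ± 0.06. The orphan Cyp20a1, whose substrate is not established, differed by -0.08 ± 0.04 (adjusted p = 0.36).

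Without any fold or p threshold, 7 P450 genes had all ASP arrays above all CON arrays (Cyp1b1, Cyp2b10, Cyp4a14, Cyp4f13, Cyp4f37, Cyp4f39 and Cyp11b2), which is 15.9% of the 44 beside 9.93% of all genes, and 2 had them below (Cyp2j9 and Cyp4x1), 4.55% beside 13.9%.

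The second comparison asked what developmental antagonism did on its own in adult tissue. None of the 44 tested P450 genes passed in CGP relative to CON by either criterion, by limma. Of all genes, 0.628% passed the adjusted p and 0.111% passed the adjusted p and fold together. Cyp2f2, set aside by rule, was 1.24-fold higher in CGP than in CON (0.31 ± 0.05, limma adjusted p = 0.017). At an unadjusted p under 0.05 there were 8 P450 genes (18.2%), beside 11.6% of all genes. Of the 44, Cyp4a14 had the largest difference, with CGP arrays of 6.05, 6.03 and 6.10 against CON arrays of 5.54, 5.85 and 5.89 (0.30 ± 0.08, adjusted p = 0.13). It passed when the third array of CON and that of ASP+CGP were left out (0.37, adjusted p = 0.047). Next came Cyp2g1, an olfactory P450, with 6.21, 6.19 and 6.17 in CGP against 6.36, 6.44 and 6.35 in CON (-0.20 ± 0.06, adjusted p = 0.24), and Cyp2b23, with 7.14, 7.05 and 7.07 against 6.88, 6.85 and 7 (0.18 ± 0.08, adjusted p = 0.42). The arrays of each of these 3 genes did not overlap between the pools. In all, 8 P450 genes had CGP arrays wholly above CON (18.2%, against 12% of all genes) and 3 wholly below (6.82%, against 7.39%), and 43 of the 44 log2 fold changes lay within 0.2 of zero.

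Cyp11b2 differed by 0.06 ± 0.09 in CGP relative to CON, Cyp1b1 by -0.04 ± 0.06 and Cyp2b10 by 0.16 ± 0.06, and none passed. For Cyp2b10 the 3 CGP arrays (6.66, 6.71 and 6.72) nevertheless lay above the 3 CON arrays (6.59, 6.50 and 6.51). Cyp27b1 showed the same arrangement, at 6.70, 6.77 and 6.80 in CGP against 6.52, 6.62 and 6.64 in CON (0.16 ± 0.06, adjusted p = 0.30), and Cyp17a1 the opposite one, at 6.32, 6.33 and 6.39 against 6.43, 6.43 and 6.47 (-0.10 ± 0.05, adjusted p = 0.47). Cyp46a1 differed by 0.11 ± 0.07 and Cyp2j9 by 0.01 ± 0.05.

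The third comparison set the combined treatment against CON. Of the 44 tested P450 genes, 1 (Cyp1b1) was downregulated in ASP+CGP relative to CON at the adjusted p. That is 2.27%, against 1.75% of all genes, and 0.919% counting lower ones only. None of the 44 passed with a fold over 1.4 as well, which 0.18% of all genes did. Cyp2f2, set aside by rule, was 1.62-fold lower in ASP+CGP than in CON (-0.69 ± 0.05, limma adjusted p = 1.2e-05). Cyp1b1 read 7.31, 7.24 and 7.36 in ASP+CGP and 7.60, 7.62 and 7.52 in CON, 1.21-fold lower without overlap (-0.28 ± 0.06, adjusted p = 0.033). The same gene was upregulated in ASP relative to that CON pool. With the replicate number as a block the adjusted p was 0.045, and in a blocked fit on the ASP+CGP and CON arrays alone, chosen after seeing the data, it was 0.063. The call was lost in 7 of 12 fits that left out an array (adjusted p between 0.016 and 0.12), and was kept without the third array of CON and that of ASP+CGP (-0.33, adjusted p = 0.027).

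Markers of meninges and perivascular fibroblasts, where Cyp1b1 is known to be expressed, moved in the same comparison. Their summed linear signal was 5080 to 5200 in ASP+CGP, against 6470 to 6660 in ASP, 6340 to 6480 in CGP and 6560 to 6810 in CON. Of the 11 markers, all measured, 7 were lower in ASP+CGP than in CON (3 of them by more than 1.4-fold). None had a pool mean under 6. Of all genes tested, 0.919% were lower in that comparison by adjusted p. Markers of endothelial and mural cells, where Cyp1b1 is also known, summed to 5290 to 5540 in ASP+CGP and 5440 to 5760 in CON, and 1 of 8 was lower. In ASP relative to CON, where Cyp1b1 was upregulated, 1 meningeal marker (Dcn) was higher and 3 (Slc6a13, Fmod and Prg4) were lower. The part of these cells in the Cyp1b1 differences was not tested.

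No other P450 gene among those described here passed in ASP+CGP relative to CON. The largest remaining log2 fold changes were those of Cyp2c66 (0.26 ± 0.15), Cyp4a14 (0.22 ± 0.08) and Cyp2b23 (0.22 ± 0.08). Cyp2c66 read 6.07, 5.77 and 6.64 in ASP+CGP against 5.85, 5.90 and 5.97 in CON, and its highest signal was on the third ASP+CGP array, the one with the largest spread over all genes. Cyp4a14 read 5.99, 6.03 and 5.93 against 5.54, 5.85 and 5.89, above CON in all arrays. Cyp11b2 differed by 0.02 ± 0.09 and Cyp2b10 by -0.05 ± 0.06, with overlapping arrays for both. The arrays lay wholly above CON for 5 P450 genes (11.4%, against 7.15% of all genes) and wholly below for 6 (13.6%, against 10.2%). The lower ones included Cyp27a1 (8.74, 8.73 and 8.74 in ASP+CGP against 8.88, 8.91 and 8.82 in CON, -0.14 ± 0.05, adjusted p = 0.17) and Cyp20a1 (8.81, 8.77 and 8.73 against 8.84, 8.88 and 8.95, -0.12 ± 0.04, adjusted p = 0.21). Cyp46a1 spread widely in ASP+CGP, at 11.02, 10.96 and 10.69, and differed by 0.15 ± 0.07 from CON (adjusted p = 0.36). Without the third ASP+CGP array it differed by 0.25 with an adjusted p of 0.048.

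**Figure D3:**
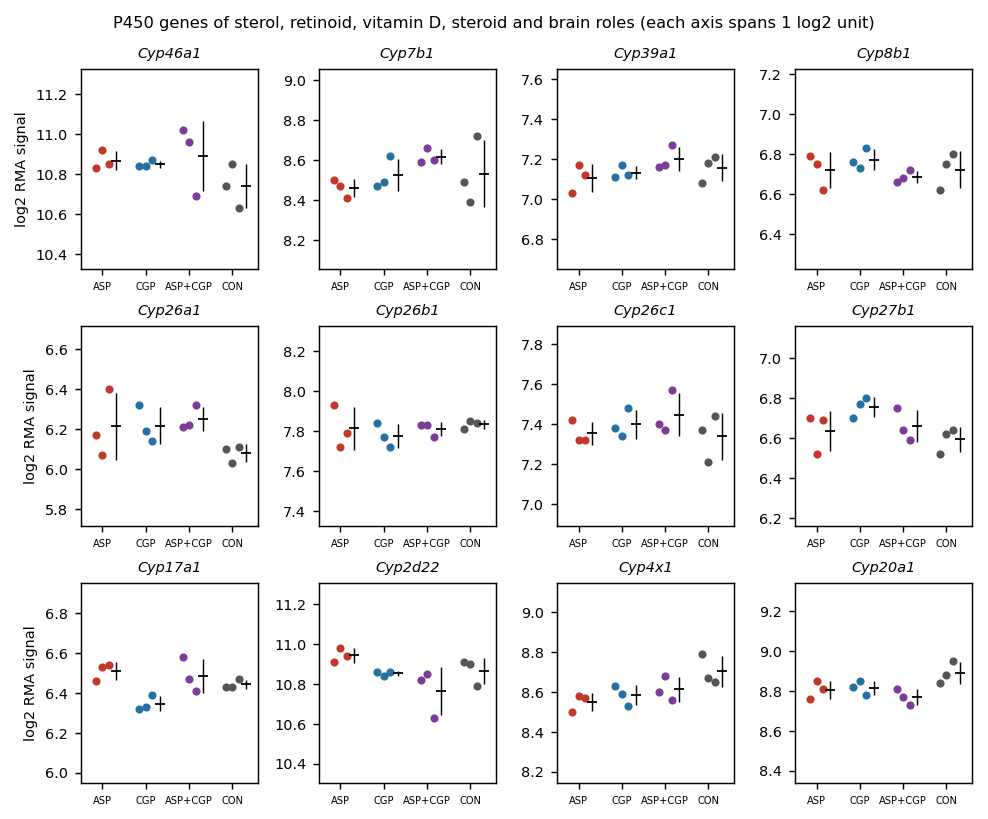
Log2 RMA signals of 12 P450 genes with roles in sterol, retinoid, vitamin D, steroid and brain metabolism on the 12 arrays (vertical axis, each spanning 1 log2 unit), by pool, with the pool mean and SD beside the points. None of these 12 genes passed in any of the 5 comparisons, and the 3 CGP arrays of Cyp17a1 lie below those of the other pools.

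The fourth comparison, ASP against ASP+CGP, asked whether aspartame-exposed tissue differed with developmental antagonism. At the adjusted p, 5 P450 genes were higher in ASP than in ASP+CGP and none was lower (11.4% of the P450 genes, against 6.92% of all genes, and 4.25% counting higher ones only). With a fold over 1.4 there were 2, Cyp11b2 and Cyp1b1 (4.55%, against 1.27% of all genes, and 1.24% counting higher ones only). Cyp11b2 was 2.79-fold higher (1.48 ± 0.09, adjusted p = 4.3e-08), on the signals already given. Cyp1b1 was 1.52-fold higher, at 8.02, 7.93 and 7.77 in ASP against 7.31, 7.24 and 7.36 in ASP+CGP (0.60 ± 0.06, adjusted p = 1.3e-05). Of the 11 meningeal markers, 8 were higher in ASP than in ASP+CGP.

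Cyp2b10 was 1.35-fold higher in ASP than in ASP+CGP, at 6.77, 6.96 and 7.04 against 6.51, 6.47 and 6.48 (0.43 ± 0.06, adjusted p = 0.00037). Cyp27a1 was 1.19-fold higher, at 8.90, 9.03 and 9.01 against 8.74, 8.73 and 8.74 (0.25 ± 0.05, adjusted p = 0.0044). Cyp4f13, a member of the family 4 cluster on chromosome 17, was 1.15-fold higher, at 9.16, 9.21 and 9.14 against 8.94, 8.99 and 8.99 (0.20 ± 0.04, adjusted p = 0.0089). In each of these 3 the ASP arrays lay above the ASP+CGP arrays without overlap. Against CON neither Cyp27a1 (0.11 in ASP and -0.14 in ASP+CGP) nor Cyp4f13 (0.12 and -0.07) passed. Leaving out the second ASP array brought Cyp4f13 to an adjusted p of 0.052.

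Arrays of 8 P450 genes lay wholly higher in ASP than in ASP+CGP (18.2%, against 12.3% of all genes) and those of 4 wholly lower (9.09%, against 14.6%). Among the lower 4 was Cyp7b1, at 8.50, 8.47 and 8.41 in ASP and 8.59, 8.66 and 8.60 in ASP+CGP, a difference of -0.16 ± 0.07 that did not pass (adjusted p = 0.23). Cyp2j12 had the lowest log2 fold change of the set (-0.21 ± 0.08, adjusted p = 0.16). Cyp2d22 was among the higher 8, at 10.91, 10.98 and 10.94 against 10.82, 10.85 and 10.63 (0.18 ± 0.06, adjusted p = 0.076).

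**Figure D4:**
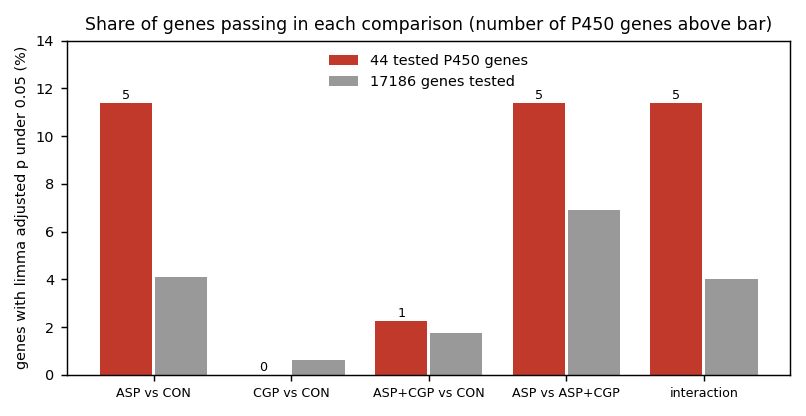
Share of the 44 tested P450 genes and of all 17186 genes tested that passed a limma adjusted p under 0.05 (vertical axis, percent) in each of the 5 comparisons, with the number of P450 genes above its bar. The P450 share was 11.4% in 3 comparisons, 2.27% in ASP+CGP against CON and 0 in CGP against CON.

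The interaction tested directly whether the aspartame difference depended on developmental antagonism, as ASP+CGP minus CGP, less ASP minus CON. Where ASP lay above CON, a negative value means a smaller or reversed aspartame difference in mice with developmental antagonism. Where ASP lay below CON, it means a larger fall. There were 5 P450 genes that passed, each with a negative value (11.4%, against 4.01% of all genes, and 2.78% negative), and 3 of them also exceeded 1.4-fold (6.82%, against 1.5%, and 1.35% negative). The interaction was -1.54 ± 0.12 for Cyp11b2 (adjusted p = 2.1e-06), -0.59 ± 0.09 for Cyp2b10 (0.00073) and -0.57 ± 0.08 for Cyp1b1 (0.0011). For Cyp11b2 the ASP+CGP mean of 6.67 was close to the CGP mean of 6.71, whereas the ASP mean was 8.15 and the CON mean 6.65. For Cyp2b10 and Cyp1b1 the ASP+CGP means of 6.49 and 7.30 lay below the CGP means of 6.69 and 7.54, while the ASP means of 6.92 and 7.91 lay above the CON means of 6.54 and 7.58.

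Cyp4a14 (-0.46 ± 0.11, adjusted p = 0.032) and Cyp27a1 (-0.25 ± 0.06, adjusted p = 0.045) passed by a narrow margin. For Cyp4a14 the ASP, CGP and ASP+CGP pools averaged 6.14, 6.06 and 5.98, and CON averaged 5.76. With values under 6 set to 6 it was -0.19 with an adjusted p of 0.14, and it was lost in 7 of 12 fits without an array. That of Cyp27a1 was lost in 10 of 12 such fits, and without the third array of CON and that of ASP+CGP (-0.23, adjusted p = 0.079). Cyp2j9, downregulated in ASP relative to CON, had an interaction of 0.09 ± 0.07 that did not pass, so that no dependence on the antagonist was shown for it.

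P450 enzymes need electrons and haem, and the genes that supply them were followed as a list of 23, of which 18 were measured. The electron carriers Por and Fdxr were among those not measured. In ASP relative to CON, 3 were upregulated, all by more than 1.4-fold, none was downregulated, and the list median was 0.02. Of all genes tested, 2.92% were upregulated there by adjusted p, and 1.02% with a fold over 1.4 as well. Fdx1, the ferredoxin that carries electrons to mitochondrial P450 enzymes of the 11, 24 and 27 families, rose most (1.28 ± 0.06, adjusted p = 3.1e-09), at 8.85, 8.98 and 8.83 in ASP against 7.55, 7.58 and 7.69 in CON. It is also on the adrenal cortex list. Alas1, the first enzyme of haem synthesis, rose by 0.61 ± 0.05, and Hmox1, which breaks haem down, by 0.58 ± 0.05. Cytochrome b5 (Cyb5a), an electron donor of microsomal P450 enzymes, differed by 0.02 ± 0.06 and did not pass. None of the 18 passed in CGP or in ASP+CGP relative to CON. The 3 upregulated genes were higher in ASP than in ASP+CGP too, where 4.25% of all genes were higher by adjusted p. Cpox was lower in ASP than in ASP+CGP (-0.21 ± 0.05, limma adjusted p = 0.027).

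Of 24 receptors and cofactors that control P450 genes, 22 were measured and 5 were upregulated in ASP relative to CON, with a list median of 0.05. Of all genes tested, 2.92% were upregulated there by adjusted p. Nr0b2 (SHP), a repressor of bile acid and steroid P450 genes, rose by 1.22 ± 0.10, at 7.86, 7.80 and 7.36 in ASP against 6.37, 6.39 and 6.59 in CON. Pparg, the fat cell receptor, rose by 0.49 ± 0.07, in the pool with the high adipose markers. The vitamin D receptor Vdr rose by 0.36 ± 0.05, the oxidant-responsive transcription factor Nfe2l2 by 0.23 ± 0.04 and Nr1h3 by 0.24 ± 0.06 (limma adjusted p = 0.048). The receptors named above for the P450 genes that moved did not pass: Ahr differed by 0.10 ± 0.05 (adjusted p = 0.36), Nr1i3 by -0.02 ± 0.06 (0.93) and Ppara by 0.11 ± 0.06 (0.38). No receptor passed in CGP or ASP+CGP relative to CON.

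Among 14 of 16 genes of retinoid and oxysterol handling, 1 rose and 1 fell in ASP relative to CON (list median 0.04). In ASP+CGP relative to CON, 2 fell (list median -0.06). Of all genes tested, 2.92% rose and 1.16% fell in ASP by adjusted p, and 0.919% fell in ASP+CGP. The retinol carrier Rbp4 was on both sides, 0.25 ± 0.06 in ASP and -0.24 ± 0.06 in ASP+CGP, and the retinoic acid producing enzyme Aldh1a2, which is also on the meningeal list, fell by 0.31 ± 0.06 in ASP+CGP. Neither change was accompanied by a call in the Cyp26 genes. Of 31 conjugating enzymes and epoxide hydrolases, which act on P450 products, 23 were measured. Beside 2.92% of all genes, 4 of the 23 rose in ASP relative to CON (list median -0.01). They included the microsomal and soluble epoxide hydrolases Ephx1 (0.24 ± 0.05, adjusted p = 0.022) and Ephx2 (0.36 ± 0.04, adjusted p = 7.2e-05). Ephx1 read 9.67, 9.65 and 9.61 in ASP, 9.27, 9.31 and 9.30 in CGP, 9.14, 9.25 and 9.07 in ASP+CGP and 9.43, 9.48 and 9.31 in CON, so that it was higher in ASP and lower in ASP+CGP than in CON (-0.25 ± 0.05, adjusted p = 0.03), as Cyp1b1 was.

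**Figure D5:**
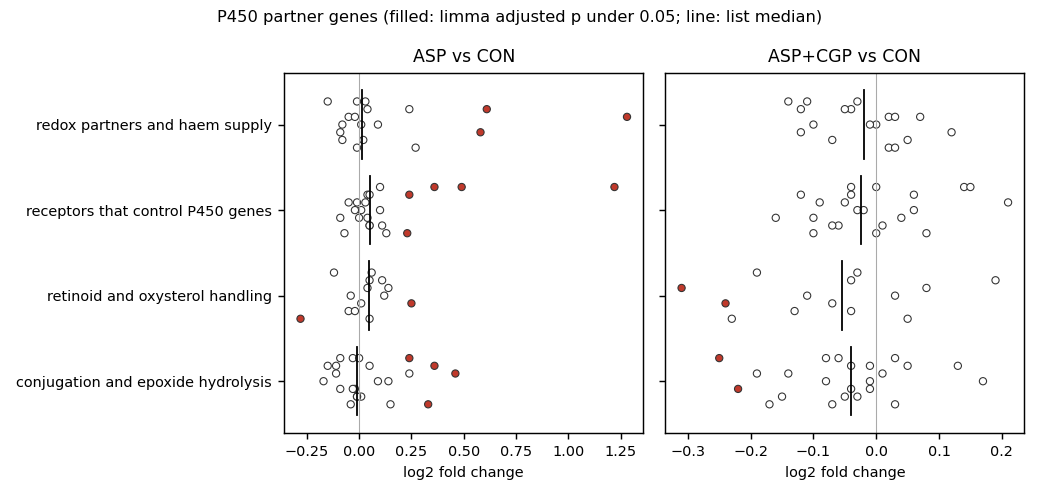
Log2 fold changes of genes that supply, control or act after P450 enzymes, in ASP (left) and ASP+CGP (right) relative to CON, 1 point a gene, on separate horizontal scales. Filled points passed a limma adjusted p under 0.05 and the vertical line marks the list median. Fdx1 at 1.28 and Nr0b2 at 1.22 lie furthest to the right in ASP.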

How the data were processed

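Hypothalamic RNA, pooled per group, was measured on 12 arrays. The authors made the deposited log2 signals in Partek by RMA, with background correction, quantile normalization and median polish. Their methods name a filter on values under 6, although lower values remain in the table. Quantile normalization would remove a change shared by most genes. The genome build behind the probe sets is not given in the sources used here. Probe sets with 1 symbol in the platform annotation (19019 of 29149) were used, the brightest per gene, and genes that reached a signal of 6 on 3 or more arrays were tested.

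Group means over all 12 arrays were fitted with limma 3.58.1 in R 4.3.3 (lmFit, eBayes), with 5 contrasts and Benjamini-Hochberg adjustment over 17186 genes in each. A gene passed at adjusted p under 0.05, alone or with a fold over 1.4. An exact permutation test of 3 against 3 arrays cannot go under p = 0.1 and was not used. The fit was run on simulated data with independent noise on each array, which holds no shared array deviations and no spread between mice. Same-numbered arrays of ASP+CGP and CON deviated together (r of 0.17 to 0.541 in 3 of 3 pairs), so the block is given beside that comparison. Unlike-numbered arrays of these pools ran between -0.456 and 0.421, so a pairing by number is not shown. Nothing in the labels says what the numbers share. Promoter windows came from RefSeq GRCm38.p6. The number of arrays limits the precision.

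Every P450 gene called, the 3 largest changes per contrast and genes with textbook roles were named. The genes and lists were chosen with earlier results of these data known. Lists covered redox and haem supply, receptors, retinoid and oxysterol handling, conjugation, and markers of hypothalamus, adrenal cortex, adipose, exocrine pancreas, liver, pituitary, meninges and endothelium. Alternatives changed the filter, fold threshold, scaling, floor, variance model, replicate block, array weights and single arrays.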

Additional observations from a re-analysis of the deposited data

Results flagged for a closer look

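The 5 P450 genes below were marked because the aspartame difference itself differed between mice with and without developmental antagonism, by the interaction in limma (ASP+CGP minus CGP, less ASP minus CON). The interaction was -1.54 for Cyp11b2, -0.59 for Cyp2b10, -0.57 for Cyp1b1, -0.46 for Cyp4a14 and -0.25 for Cyp27a1. In ASP minus CON the log2 fold change was 1.50 for Cyp11b2, 0.39 for Cyp2b10, 0.33 for Cyp1b1, 0.38 for Cyp4a14 and 0.11 for Cyp27a1. Each rests on 1 pool per group, so that a difference between pools and one between treatments cannot be told apart.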

How the results depend on the processing

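No direction reversed. Over the 16 passing pairs of gene and comparison, 340 of 391 values under alternatives stayed on their side of the threshold and 51 lost it. Cyp11b2, Cyp2b10 and Cyp1b1 kept every call named in the report under each alternative that gave a value (a filter of 7 left Cyp2b10, Cyp4a14 and others untested, and the interaction has no fit on 2 pools), except Cyp1b1 in ASP+CGP relative to CON. Without a fold threshold the count of P450 genes was 5 for ASP against ASP+CGP (6.92% of all genes) and 5 for ASP against CON (4.08%). It was 1 for ASP+CGP against CON (1.75%) and 5 for the interaction (4.01%). At a 1.2-fold threshold it was 4 for ASP against CON (2.47%) and 1 for ASP+CGP against CON (0.919%). By adjusted p alone, ASP against CON gave 8 genes after further quantile normalization (4.6% of all genes passed there), 8 with array weights (7.55%) and 3 with an unmoderated linear model (3.77%). ASP+CGP against CON gave 0 with arrays centred on their medians (2.03% of all genes), with the unmoderated model (1.65%) or with the arrays of the 2 pools only (0.396%). It also gave 0 with the replicate block on those 2 pools (0.838%), a form chosen after seeing the data. With array weights it gave 5 (7.35% of all genes). CGP against CON gave 2 with array weights (4.55% of the P450 genes beside 5.03% of all) and 1 without the third array of CON and that of ASP+CGP (1.77% of all). The interaction gave 3 with a signal filter of 7 (5% of all genes), which tests fewer genes. It gave 7 with array weights (7.22% of all genes), which added Cyp4f13 (-0.21, adjusted p = 0.025) and a positive value for Cyp4x1 (0.24, 0.042). The cause of the other shifts was not tested.

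Leaving out single arrays gave 2 to 3 genes with a fold over 1.4 for ASP against ASP+CGP (1.27% to 1.31% of all genes). It gave 1 to 1 for ASP against CON (1.04% to 1.11%) and 3 to 4 for the interaction (1.44% to 1.68%). The counts were 0 to 0 for ASP+CGP against CON (0.163% to 0.209%) and for CGP against CON (0.105% to 0.128%). By adjusted p alone it gave 4 to 6 for ASP against ASP+CGP (4.12% to 9.46% of all genes). For ASP against CON it gave 3 to 6 (2.8% to 5.53%), with 3 without the first ASP array. ASP+CGP against CON gave 0 to 2 (0.838% to 2.94%) and CGP against CON 0 to 0 (0.285% to 1.09%). The interaction gave 3 to 5 (2.64% to 4.35%). Same-numbered arrays had r over 0.1 in 6 of 18 pairs. All 3 pairs of ASP+CGP and CON were among them, and elsewhere 1 or none of 3 was. Unlike-numbered arrays of ASP+CGP and CON reached 0.421 as well. With the replicate block, Cyp27a1 left the interaction (adjusted p = 0.059), which then had 4 genes (4.03% of all genes). Cyp4b1 joined ASP against CON (0.046), which had 6 (4.36% of all genes). The scalings moved the median of all genes by at most 0.022.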
